A study of Mus musculus with 2 samples.

Results

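The nuclear genes of respiratory complex I were examined in the left cerebral cortex of mouse by long-read RNA sequencing. They were chosen by gene symbol, as the protein-coding genes named Nduf followed by a, b, c, s, v, ab or af and a number. The rule took 45 of the 55536 annotated genes, and it used no measured value. Values are given for 44 of them, and all counts and sums over members below are over these 44. Of the 44 genes, 35 are subunits of the complex, 8 are assembly factors, and Ndufa4, first described as a subunit of complex I, is now counted with complex IV. The cortex came from adult mice of strain B6NCrl, given as C57BL/6 in another label, at 6 months of age, with no treatment, transgene or deletion named, described as male in one label and with the sex not collected in another. The design has 1 group of 2 libraries, replicate 2 and replicate 1, so no condition was compared. The labels number the 2 libraries as biological replicates, each with technical replicate number 1. Both tissue samples nevertheless carry the same donor record. No label states outright that they came from separate animals, so the spread between the libraries may be technical.

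Complex I is the entry point of electrons from NADH into the respiratory chain of mitochondria. Its matrix arm takes electrons from NADH and passes them along iron-sulfur clusters to ubiquinone, and its membrane arm pumps protons. The core subunits of the matrix arm are encoded in the nucleus and those of the membrane arm in the mitochondrial genome, while the accessory subunits, which surround the core, are all nuclear. Assembly factors bind intermediates of the complex and leave before it is complete. In neurons the complex supplies much of the proton gradient that drives ATP synthesis, and inherited defects of its subunits and assembly factors cause diseases of the brain such as Leigh syndrome.

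Several sequences carried the results on transcript structure, first the coding exons that were skipped in part of the reads. In the lines below the skipped exon is in capitals and the bases of the neighbouring exons in lower case, 5′ to 3′ on the coding strand, from GENCODE M21 transcripts (build mm10).
Ndufaf6 exon 4, chr4:11066651-11066707, minus strand: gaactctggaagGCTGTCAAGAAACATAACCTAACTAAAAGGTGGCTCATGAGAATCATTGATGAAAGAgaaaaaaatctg
Ndufaf7 exon 8, chr17:78944941-78945084, plus strand: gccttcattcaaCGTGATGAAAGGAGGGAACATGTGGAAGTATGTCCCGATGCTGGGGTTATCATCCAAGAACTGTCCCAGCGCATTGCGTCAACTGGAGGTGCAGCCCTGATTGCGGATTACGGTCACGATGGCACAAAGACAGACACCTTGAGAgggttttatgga
Ndufs4 exon 2, chr13:114351448-114351526, minus strand: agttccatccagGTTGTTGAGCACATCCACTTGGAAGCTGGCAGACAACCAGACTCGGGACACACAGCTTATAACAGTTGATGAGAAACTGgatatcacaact
Ndufa5 exon 3, chr6:24522659-24522775, minus strand: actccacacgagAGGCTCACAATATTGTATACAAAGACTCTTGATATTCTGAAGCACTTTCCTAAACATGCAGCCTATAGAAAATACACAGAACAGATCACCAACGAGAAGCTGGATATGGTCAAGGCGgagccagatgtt
A pair of junctions tells the short form of Ndufv3, a subunit at the NADH end of the complex, from its long form; capitals mark the exon that follows exon 2.
Ndufv3-202, short form, exon at chr17:31531110-31531331, plus strand: aaagtgtgctcaaagAGCCCGAGCCGACTG
Ndufv3-201, long form, exon at chr17:31527310-31528401, plus strand: aaagtgtgctcaaagATGTGGGAGCAGAGG

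The libraries held 1304133 reads in replicate 2 and 1306424 reads in replicate 1. Levels are CPM, the reads of a gene scaled to a library total of 1e+06, so that a single read was worth 0.767 CPM in replicate 2 and 0.765 in replicate 1. A long read was taken to stand for 1 transcript molecule whatever its length, so CPM was not divided by length. The length of the leading annotated transcript had a Spearman correlation with mean CPM of -0.335 over the 44 genes. Over the 36 without the assembly factors it was -0.195. Whether transcript length affected the number of reads was not tested. A count of 0 allowed up to 3 reads, or 2.30 CPM, and all intervals and limits cover counting error only. Markers of neurons, astrocytes, oligodendrocytes, microglia and endothelium were all found, with 3834 reads of Snap25 (neurons) in replicate 2 and 4132 in replicate 1. Of 15 markers tested as described below, those of other tissues included, 2 were called lower in replicate 2, namely Slc17a7 of excitatory neurons, with 36 reads in replicate 2 and 130 in replicate 1, and Hbb-bs of red blood cells, with 5 and 23 reads. In bulk tissue, fewer cells of a type and less RNA per cell cannot be told apart.

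All 44 genes were transcribed in the cortex, and together they took 20243 reads in replicate 2 and 19534 in replicate 1. This came to 15237 ± 403 CPM (SD, n = 2, as for all means below), with 15522 CPM in replicate 2 and 14952 CPM in replicate 1. Of the 18907 annotated genes with a read in either library, 34 of the 44 were among the 1000 of highest mean CPM. The 51 nuclear genes listed for complexes II to V summed to 30542 ± 510 CPM, with Cox8a and Cox4i1, subunits of cytochrome c oxidase, the most abundant at 3121 ± 222 and 2989 ± 165 CPM. The 7 complex I subunits of the mitochondrial genome summed to 7484 ± 339 CPM, of which mt-Nd1 alone had 4458 ± 455 CPM.

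Most subunits were measured at levels close to each other. Without Ndufa4, the 35 subunits had a median of 358 CPM, 28 of them lay within 1.5-fold of it and 32 within 2-fold. The third quartile was 1.40 times the first. The assembly factors lay lower, with a median of 55.2 CPM, and the median subunit was 6.48 times the median assembly factor. Every one of these assembly factors, with 32 to 124 reads in replicate 2 and 24 to 141 in replicate 1, had fewer reads than every one of these subunits in both libraries. The order of the members was close in both libraries, with a Spearman correlation of CPM of 0.958 and a Pearson correlation of log2 CPM of 0.990 over the 44 genes, which share depth and library preparation.

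**Figure D1:**
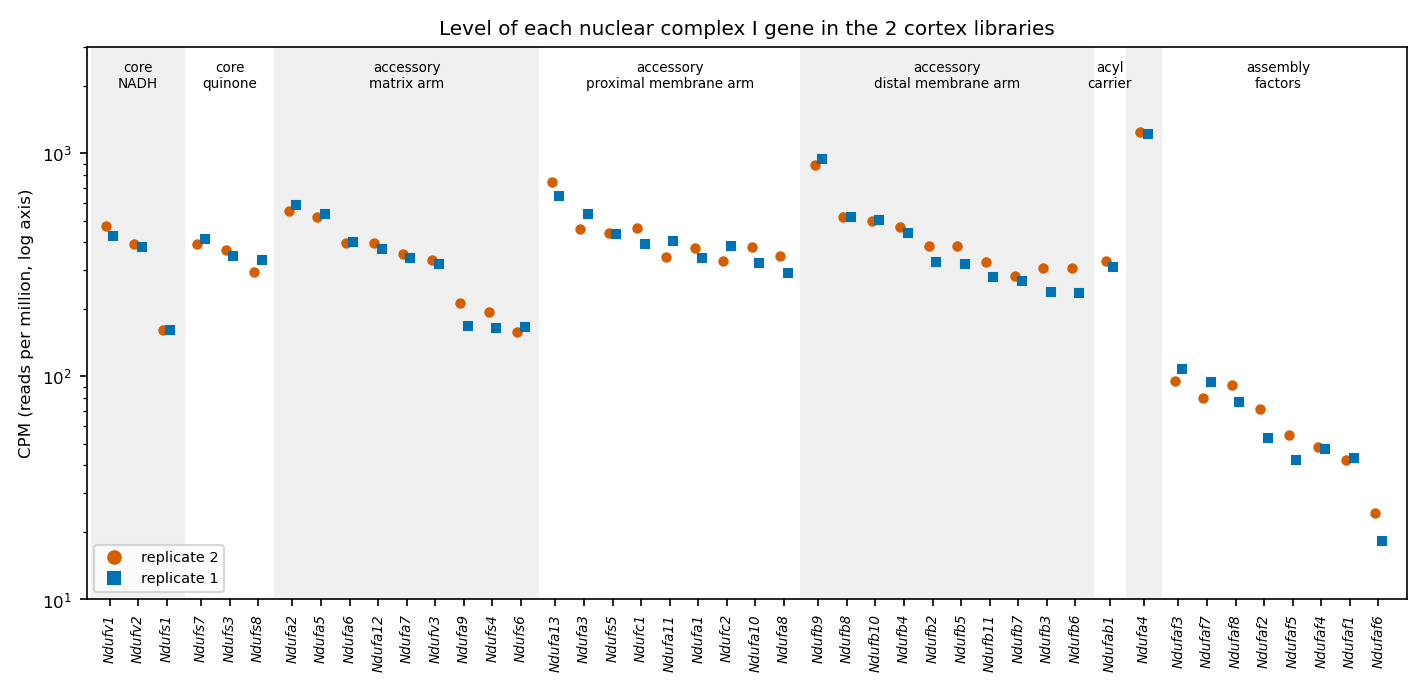
Level of each of the 44 genes in CPM (log axis), grouped by role, with replicate 2 as circles and replicate 1 as squares; the unlabelled shaded column holds Ndufa4. Subunits lie mostly between 200 and 600 CPM, Ndufa4 and Ndufb9 above and the assembly factors below.

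The core subunits of the NADH module, which oxidise NADH, comprised a pair of well expressed genes and a lower one. Ndufv1, which binds NADH and the flavin FMN, had 618 reads in replicate 2 and 556 in replicate 1, a mean of 450 ± 34.1 CPM. Ndufv2, which carries an iron-sulfur cluster beside it, had 511 and 496 reads, a mean of 386 ± 8.60 CPM. Ndufs1, the largest subunit, which carries several of the iron-sulfur clusters, had 211 and 212 reads, a mean of 162 ± 0.341 CPM. Ndufs1 lay below both other genes of the module in each library.

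In the quinone module, where electrons reach ubiquinone, Ndufs7, which carries the last iron-sulfur cluster of the chain, had 511 reads in replicate 2 and 542 in replicate 1, a mean of 403 ± 16.3 CPM. Ndufs3 had 480 and 452 reads, a mean of 357 ± 15.6 CPM. Ndufs8, which carries a pair of clusters, had 384 and 434 reads, a mean of 313 ± 26.7 CPM. These 3 genes lay within 1.5-fold of the median subunit.

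The accessory subunits of the matrix arm spanned 162 to 571 CPM. Ndufa2, with a thioredoxin-like fold, was the highest with 722 reads in replicate 2 and 768 in replicate 1, a mean of 571 ± 24.2 CPM. Ndufa5 followed with 677 and 700 reads, a mean of 527 ± 11.8 CPM. Ndufa6, Ndufa12, Ndufa7 and Ndufv3 lay between 327 and 398 CPM. The lowest were Ndufa9, a subunit near the quinone module, at 191 ± 31.1 CPM, Ndufs4, whose loss in mice gives a model of Leigh syndrome, at 180 ± 20.3 CPM, and Ndufs6 at 162 ± 5.22 CPM.

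The accessory subunits of the proximal membrane arm spanned 319 to 696 CPM. Ndufa13, also known as GRIM-19, had 970 reads in replicate 2 and 846 in replicate 1, a mean of 696 ± 68.0 CPM. Ndufa3 had 595 and 702 reads (497 ± 57.3 CPM), the lower count in replicate 2. Ndufs5 had 572 and 566 reads (436 ± 3.79 CPM). Ndufc1 had 603 and 515 reads (428 ± 48.2 CPM). The other 5 genes of this group, Ndufa11, Ndufa1, Ndufc2, Ndufa10 and Ndufa8, lay between 319 and 374 CPM.

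In the distal membrane arm, Ndufb9 stood out with 1158 reads in replicate 2 and 1228 in replicate 1, a mean of 914 ± 36.8 CPM. Ndufb8 had 676 reads in each library, a mean of 518 ± 0.643 CPM. Ndufb10 had 649 and 659 reads (501 ± 4.80 CPM) and Ndufb4 609 and 574 reads (453 ± 19.5 CPM). These lay above the rest of the arm, Ndufb2, Ndufb5, Ndufb11, Ndufb7, Ndufb3 and Ndufb6, at 272 to 355 CPM. Ndufab1, the mitochondrial acyl carrier protein, which binds to the complex and also serves fatty acid synthesis, had 429 and 404 reads, a mean of 319 ± 13.9 CPM. Ndufa4 was the most abundant of the 44 genes, with 1625 reads in replicate 2 and 1591 in replicate 1, a mean of 1232 ± 19.9 CPM, above the highest subunit in each library.

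Among the assembly factors, Ndufaf3, which acts on the quinone module, was the highest with 124 reads in replicate 2 and 141 in replicate 1. Its partner Ndufaf4 had 63 and 62 reads. Ndufaf7, a methyltransferase, had 104 and 123 reads. Ndufaf8 had 119 and 100 reads, and Ndufaf5, the hydroxylase of Ndufs7 that it stabilises, had 71 and 55 reads. Thus the members of each of these pairs were at unlike levels, with the smaller count of either pair below the other in both libraries. Ndufaf2, a late factor related to Ndufa12, had 93 and 69 reads. Ndufaf1, which acts in the building of the membrane arm, had 55 and 56 reads. Ndufaf6 was the lowest of the 44 genes with 32 and 24 reads, or 21.5 ± 4.36 CPM.

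Of 10 further complex I assembly factors listed outside the naming rule, Coa1 was not found under that symbol in the annotation. The other 9 had reads, and they summed to 395 ± 3.20 CPM, against 495 ± 17.4 CPM for the 8 members. The most abundant was Tmem70, which also takes part in the assembly of ATP synthase, with 154 reads in replicate 2 and 160 in replicate 1. Timmdc1, a factor of the membrane arm, had 93 and 69 reads. Ndufb1-ps, outside the rule by its name and by its annotation as a bidirectional promoter lncRNA, had 386 and 329 reads. Its mean of 274 ± 31.2 CPM was a level within the range of the subunits. Ndufa4l2, a relative of Ndufa4, had 0 reads in replicate 2 and 4 in replicate 1, so both libraries were near the limit that a count of 0 allows. In the order of levels, 14 of 43 pairs of neighbours had ranges over the 2 libraries that did not overlap. Of these, 6 were the steps from Ndufa4 down to Ndufb10. A range here is 2 values, and the order was set by the same values, so this is a description and no test. Some gaps were very small, as in replicate 2 with 677 reads of Ndufa5 and 676 of Ndufb8.

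The comparison of the 2 libraries asked how far the level of a member differed beyond counting noise. The reads of each gene with at least 10 in total were compared with the split given by the total reads of the libraries in a two-sided exact binomial test, with Benjamini-Hochberg adjustment over all 11838 such genes. Calls required an adjusted p under 0.05 together with a 2-fold difference. Such a test compares 2 libraries and no condition. The more reads a gene has, the smaller the difference that passes by p alone. Shares over all genes include genes of low counts, so they are no match for a list of abundant genes. Of the 44 members, 0 were called in either direction. Among all genes tested, 7.05% were called, 5.44% lower and 1.61% higher in replicate 2. By the adjusted p alone, with no limit on size, 5 members passed, against 12.8% of all genes. They were Ndufb6, Ndufb3, Ndufb5 and Ndufa13, higher in replicate 2, and Ndufa3, lower, and at an unadjusted p under 0.05 there were 13 (29.5%), against 22.8% of all genes.

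The largest of these log2 ratios of replicate 2 over replicate 1 was that of Ndufb6, a subunit of the distal membrane arm, with 399 reads in replicate 2 and 310 in replicate 1, a log2 ratio of 0.37 (exact binomial test, adjusted p = 0.00946). Ndufb3, of the same arm, had 400 and 314 reads, a log2 ratio of 0.35 (exact binomial test, adjusted p = 0.0137). Ndufa13 had a log2 ratio of 0.20 (exact binomial test, adjusted p = 0.0301) and Ndufa3 of -0.24 (exact binomial test, adjusted p = 0.0314). Ndufb5 had 501 reads in replicate 2 and 415 in replicate 1, a log2 ratio of 0.27 (exact binomial test, adjusted p = 0.0374). These 5 differences were all smaller than 1.5-fold. The log2 ratios of the 44 members ran from -0.25 for Ndufa11 to 0.43 for Ndufaf2. The median over the members was 0.06, against 0.0025 over all genes tested. Among the 7 mitochondrial subunits, mt-Nd3 was called higher, with 424 reads in replicate 2 and 141 in replicate 1. By the adjusted p alone 5 of the 7 passed, 4 higher in replicate 2 and 1 lower, against 12.8% of all genes. The lower one was mt-Nd1, the most abundant of them, with 5394 reads in replicate 2 and 6245 in replicate 1, a log2 ratio of -0.21. The mitochondrial genome as a whole had 70731 and 52927 reads. Of the 48 tested genes of complexes II to V, 0 were called by the exact binomial test at 2-fold, against 7.05% of all genes. In that test 12 of the 48 had an adjusted p under 0.05, against 12.8% of all genes. An unadjusted p under 0.05 was found for 18 of the 48, against 22.8% of all genes. Of the 9 tested further assembly factors, 0 were called, and 1 had an unadjusted p under 0.05 in that exact test.

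**Figure D2:**
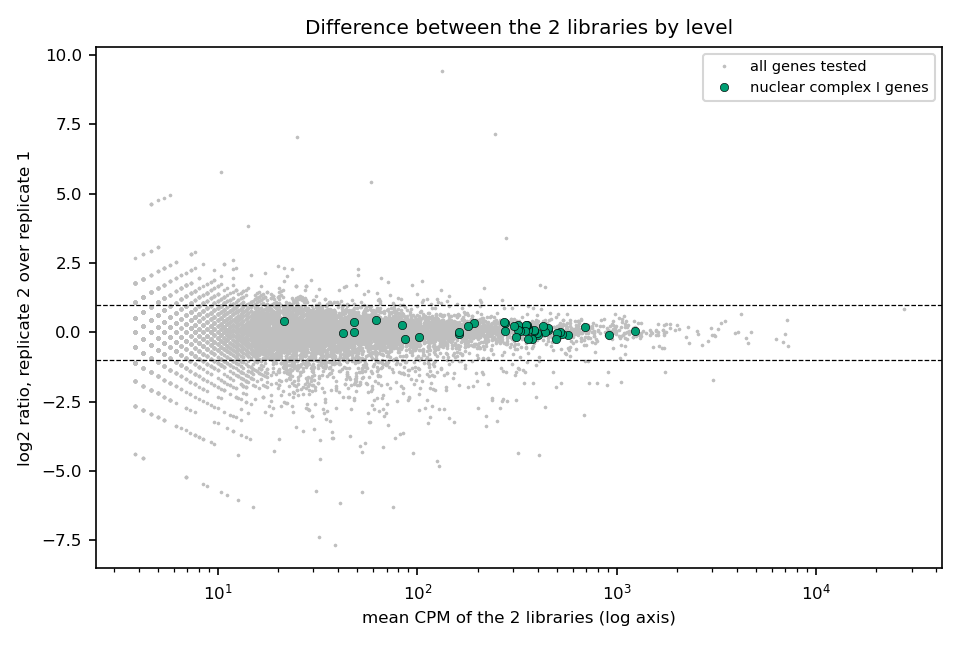
Log2 ratio of replicate 2 over replicate 1 against mean CPM (log axis) for the 11838 genes tested (grey) and 44 complex I genes (green); dashed lines mark a 2-fold difference. The complex I genes lie between -0.25 and 0.43.

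How far reads extended toward the 5′ end was followed exon by exon in 3 core subunits. Shares are of all reads of a gene, whether or not they reach its last exon. In Ndufs1, whose leading transcript has 19 exons, exon 1 was reached by 172 of 211 reads in replicate 2 (81.5%) and 171 of 212 in replicate 1 (80.7%). In Ndufv1, with 10 exons, it was reached by 89.6% of reads in replicate 2 and 91.5% in replicate 1. In Ndufs3, with 7 exons, it was reached by 95.4% and 96.7%. The libraries were farther apart at some other exons, such as exon 15 of Ndufs1, reached by 89.6% of reads in replicate 2 and 93.9% in replicate 1. Exon 19, the last of Ndufs1, was itself reached by 94.8% of reads in replicate 2 and 96.2% in replicate 1. Exon 1 of the accessory subunit Ndufa10 was reached by 90.7% and 94.3%, and that of Ndufa9 by 92.4% and 88.7%, so the direction was not the same in all genes.

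**Figure D3:**
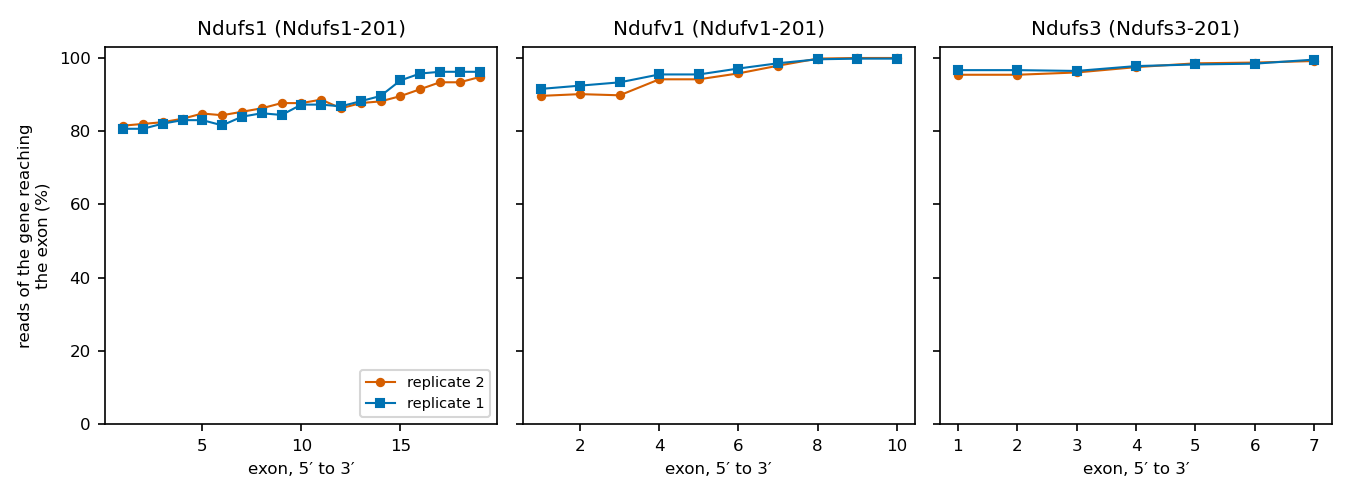
Share of the reads of Ndufs1, Ndufv1 and Ndufs3 that reach each exon of the leading transcript (per cent, exons numbered 5′ to 3′), replicate 2 as circles and replicate 1 as squares. The curves of the 2 libraries lie close together and fall toward the 5′ end, to 81.5% in replicate 2 and 80.7% in replicate 1 for Ndufs1.

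A read was called coding-complete when its model spans an annotated coding sequence with all of that sequence's introns exact, a measure chosen after the data had been seen. Models of annotated transcripts carry the annotated ends, so the share does not measure where each read itself began or stopped. Fisher's exact test set the share of replicate 2 against that of replicate 1, with p-values adjusted over the 6424 genes with at least 20 reads in each. Of the 44 members, 0 had an adjusted p under 0.05 and 2 an unadjusted p under 0.05, against 9.95% of all genes by the adjusted p. The differences of the 44 members, replicate 2 minus replicate 1, ran from -9.19 to 5.15 percentage points.

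Most reads of the complex I genes were on models that hold a whole annotated coding sequence. The median coding-complete share was 92.8% over the 44 members and 64.5% over the 6424 genes, and 27 members reached 90%. Members are short: 25 of the 44 have a leading transcript under 1000 bases. Among such short transcripts the median was 96.8% for the 25 members and 89.0% for all 711 genes, while the 19 longer members had a median of 89.2%. Ndufa13 is among the longer by the 1251 bases of its annotated transcript, although most of its reads were on a model of 573 bases. The measure takes any complete coding sequence annotated for the gene, short ones included. Counting only that of the leading coding transcript, the median was 90.6% over the members and 59.1% over all genes, and 10 members were lower by more than 1 percentage point, Ndufv3 by the most. Ndufa6, at 100% by any coding sequence, then had 493 of 517 reads in replicate 2 (95.4%) and 499 of 522 in replicate 1 (95.6%). By any coding sequence, Ndufb11 and Ndufa1 had 99.6% ± 0.583 and 99.5% ± 0.190. The lowest shares by that measure were those of Ndufaf6, at 21.9% in replicate 2 and 25% in replicate 1, Ndufaf7 at 68.4% ± 1.24, Ndufaf5 at 69.8% ± 0.942, Ndufaf4 at 75.2% ± 1.41 and Ndufs1 at 76.1% ± 1.59. Assembly factors and the large core subunit Ndufs1 thus filled the low end. In Ndufaf6, 8 of 32 reads in replicate 2 and 8 of 24 in replicate 1 were on a model that leaves out an annotated exon of 57 bases. Such reads match no annotated coding sequence and so do not count as coding-complete.

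**Figure D4:**
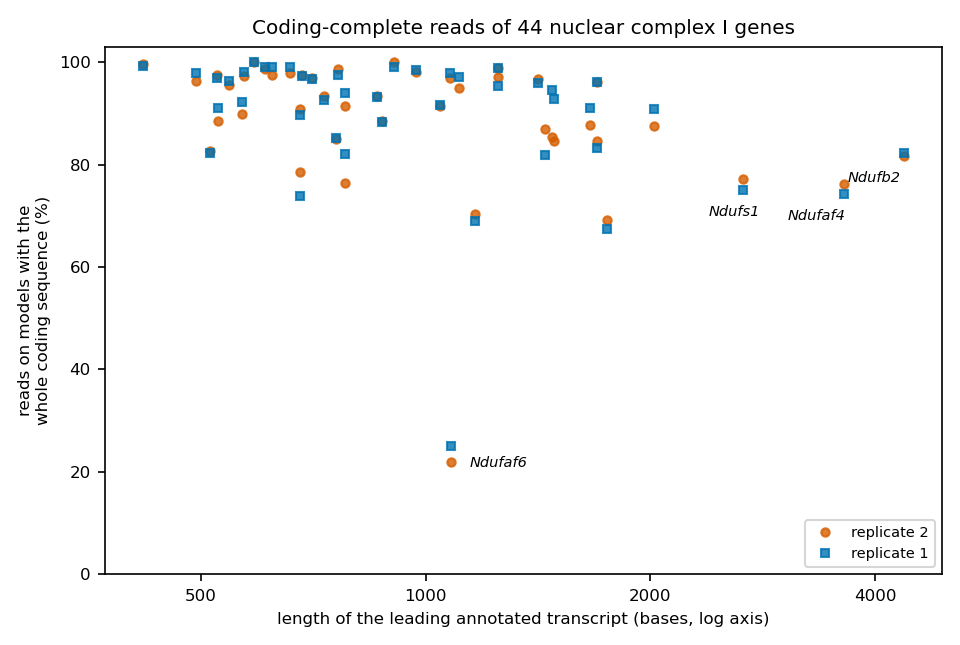
Share of reads on models that hold a whole annotated coding sequence (per cent) against the length of the leading annotated transcript (bases, log axis) for the 44 genes, replicate 2 as circles and replicate 1 as squares. Short transcripts lie mostly above 90%; Ndufaf6 lies at 21.9% in replicate 2 and 25% in replicate 1.

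A known transcript is a model whose introns all match an annotated transcript, and an incomplete match is one whose introns are an unbroken part of such a transcript. On known transcripts lay 89.3% ± 0.528 of the members' reads, against 69.8% ± 2.97 of the reads of all annotated genes. Incomplete matches made up 7.63% ± 0.483 of the members' reads and 14.8% ± 1.52 of all, and unspliced or genomic models 0.463% ± 0.148 and 9.41% ± 1.88. Ndufa13 gave 966 of the 1613 incomplete matches in replicate 2 and 823 of the 1423 in replicate 1, and without it the known share of the members was 93.6% ± 0.233. Of the reads on known transcripts, 98.8% in replicate 2 and 99.0% in replicate 1 were on protein-coding ones.

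Ndufa13 had no read on its annotated full-length transcript. A single model of 4 exons and 573 bases, which starts at the annotated exon 2, held 942 of its 970 reads in replicate 2 (97.1%, 95.9 to 98.1) and 807 of 846 in replicate 1 (95.4%, 93.8 to 96.7). The annotated first exon of Ndufa13-201 (chr8:69901881-69902558, mm10, minus strand) was touched by 1 and 2 reads. The first annotated intron was found in 0 reads, which allows a share of up to 0.309% in replicate 2 and 0.355% in replicate 1. The annotated start codon lies in exon 2, after 97 bases of that exon, so the short model keeps the whole coding sequence of 435 bases, and 97.2% of reads in replicate 2 and 95.4% in replicate 1 were coding-complete. The gene overlaps Yjefn3 on the same strand, which had 80 reads in replicate 2 and 70 in replicate 1.

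Isoform use was counted on known transcripts in the 42 members that had 20 or more such reads per library; Ndufa13 and Ndufaf6 had too few. In 19 of the 42 a single transcript held at least 98% in both libraries. In 6 members the leading transcript held under 90% in both, or 14.3%, against 25.2% of the 3956 genes measured. By Fisher's exact test of the leading share between the libraries, no member had an adjusted p under 0.05, against 1.11% of all genes, and 0 had an unadjusted p under 0.05.

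Ndufs1 and Ndufs8 each used different ends of the first exon, ahead of the same coding sequence. In Ndufs1 the leading transcript, Ndufs1-201, held 70.9% of 158 known reads in replicate 2 (63.1 to 77.8) and 64.1% of 153 in replicate 1 (55.9 to 71.6), and Ndufs1-203 held 26.6% and 35.3%. In Ndufs8 the leading transcript, Ndufs8-205, held 82.9% of 327 reads and 85.7% of 391, and Ndufs8-201 held 13.1% and 10.7%. The intervals of the 2 libraries overlapped in both genes. Ndufaf1 likewise differed ahead of its coding sequence, with Ndufaf1-202 at 72.5% of 40 reads in replicate 2 and 79.4% of 34 in replicate 1 and Ndufaf1-203, with an earlier end of the first exon, holding the rest.

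Ndufaf8, Ndufaf4 and Ndufb2 were the remaining members of this kind. Ndufaf8-203, annotated as a retained intron, held 23.1% of 117 reads in replicate 2 and 17.2% of 99 in replicate 1. Ndufaf4-202, a processed transcript with no annotated coding sequence, held 6 of 54 reads and 6 of 52. In Ndufb2, Ndufb2-205 held 79.5% of 414 reads and 74.2% of 364, and Ndufb2-202, which differs from it after the stop codon, 18.8% and 20.9%. Unspliced reads assigned to Ndufb2 numbered 68 of its 502 reads in replicate 2 and 41 of 424 in replicate 1. Of these, 65 and 36 ran past the gene's annotated end at position 39603382 of chromosome 6. They lay from 39603237 in replicate 2 and 39603382 in replicate 1 to 39607667, so they overlapped only the last bases of the gene. The level of Ndufb2 includes them.

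Inclusion of an annotated internal exon was computed from the reads that hold it with exact ends and the reads with an intron that spans it, as the share of the first kind. Of 165 exons in the 44 genes that had 20 or more informative reads per library, 134 were included in more than 98% of reads in both. In 10 genes 1 exon each lay between 2% and 98% in both libraries. In 7 of the 10, inclusion was above 85% in both. One of the 7, the 83-base exon of Ndufa11, is a minor form all the same, since reads with the longer form of that exon count neither way. In the remaining 3, Ndufaf6, Ndufv3 and Ndufs1, it was below 50%.

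Skipping of exons whose length is a multiple of 3 keeps the reading frame. The 117-base exon 3 of Ndufa5 (chr6:24522659-24522775), 39 codons, was included in 624 of 656 reads in replicate 2 (95.1%, 93.2 to 96.6) and 645 of 678 in replicate 1 (95.1%, 93.2 to 96.6). The 144-base exon 8 of Ndufaf7 (chr17:78944941-78945084), 48 codons, was included in 90 of 99 reads (90.9%, 83.4 to 95.8) and 105 of 116 (90.5%, 83.7 to 95.2). The 57-base exon 4 of Ndufaf6 (chr4:11066651-11066707), 19 codons, was included in 9 of 24 reads in replicate 2 (37.5%, 18.8 to 59.4) and 9 of 20 in replicate 1 (45%, 23.1 to 68.5). In Ndufaf6, then, fewer reads held the exon than skipped it in each library, with few reads and wide intervals. The annotation lists no transcript of Ndufaf6 or Ndufaf7 that equals the leading one without this exon, and such a chain of introns had 8 reads in each library for either gene.

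Other skipped exons do not keep the frame. The 79-base exon 2 of Ndufs4 (chr13:114351448-114351526) was included in 225 of 242 reads in replicate 2 (93.0%, 89.0 to 95.9) and 192 of 210 in replicate 1 (91.4%, 86.8 to 94.8). Ndufs4-202, a transcript annotated as a target of nonsense-mediated decay, had 14 reads in replicate 2 and 16 in replicate 1. The 50-base exon 2 of Ndufa7 was included in 95.4% and 96.0% of reads, the 41-base exon 3 of Ndufaf2 in 97.5% and 89.8%, and the 104-base exon 5 of Ndufaf5 in 95.1% and 91.8%. For each of these exons the intervals of the libraries overlapped. The 83-base exon of Ndufa11 is a shorter form, with another splice acceptor, of the 123-base exon that most reads hold, and its transcript Ndufa11-204 took 4.46% of known reads in replicate 2 and 4.49% in replicate 1.

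In Ndufv3 the cortex reads were mainly of the short form. The 1092-base exon 3 (chr17:31527310-31528401), 364 codons, was included in 25 of 426 reads in replicate 2 (5.87%, 3.83 to 8.54) and 35 of 411 in replicate 1 (8.52%, 6.00 to 11.6). The short transcript Ndufv3-202, of 493 bases, codes for 104 residues and the long Ndufv3-201, of 1582 bases, for 468. The intervals of the 2 libraries overlapped. Ndufs1 had a further exon of 104 bases between its first exon and the start of its coding sequence, held by 8 of 172 reads and 6 of 169.

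**Figure D5:**
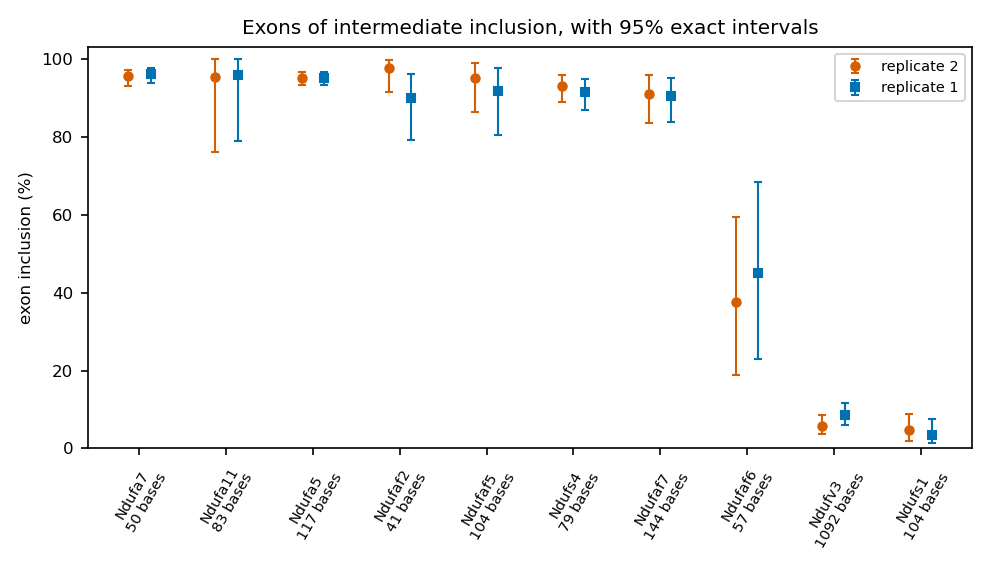
Inclusion of the 10 exons between 2% and 98% in both libraries (per cent of informative reads), replicate 2 as circles and replicate 1 as squares, with 95% exact binomial intervals. Ndufv3 and Ndufs1 lie below 10%, Ndufaf6 between 37.5% and 45% with wide intervals, and the other 7 above 85%; for the Ndufa11 exon, reads with its longer form do not count.

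Chains of introns outside the annotation held 506 of the members' reads in replicate 2 and 517 in replicate 1. There were 252 in replicate 2 and 250 in replicate 1, of which 109 were shared, or 43.3% of the chains of replicate 2 and 43.6% of those of replicate 1. The shared chains came from 40 genes and had 339 and 335 reads. With at least 3 reads in each library 32 shared chains were left, and 26 of the 109 had 1 read in each. Of the 109, 31 joined annotated splice sites of their gene in a new combination and 78 held at least 1 splice site outside its annotation. Of the same 109, 26 kept every coding intron of an annotated transcript, and 42 lay within 10 bases of an annotated chain at every position. The most frequent, in Ndufb10, had 24 reads in replicate 2 and 30 in replicate 1 and held an intron at 24722521 to 24722650 of chromosome 17, with an end 4 bases from that of the annotated intron.

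The next most frequent also had intron ends a few bases from annotated ones. Ndufa5 had 14 and 16 reads and a shift of 2 bases, and Ndufa4 16 and 6 reads and 5 bases. Ndufc2 had 10 and 11 reads and 2 bases, and Ndufa11 11 and 8 reads and 7 bases. Whether read alignment gave rise to such small shifts was not tested. Chains of Ndufaf1 (6 reads in replicate 2 and 13 in replicate 1), Ndufv1 (11 and 6 reads) and Ndufb9 (5 and 9 reads) followed, besides those of Ndufaf6 and Ndufaf7 given above. In all, 12 of the 109 shared chains equalled an annotated chain with 1 exon left out, and for 8 of them that exon has a length that is a multiple of 3.

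The start of the genes was read from RefSeq promoter windows of build GRCm38.p6, from 250 bases before to 50 after the start site, available for 40 of the members in 42 windows. These windows had a median GC content of 59.3%, against 52.7% over all 32851 windows. The letters AAGATGGC, the core of YY1-type sites, were found on either strand in 8 of the 42 windows, or 19.0%, against 2.75% of all windows. GCATGCGC, the core of sites of NRF1, a factor known for genes of the respiratory chain, was found in 5, or 11.9%, against 2.71%. GGGCGG, the GC box, was found in 22 (52.4%, against 35.7%), CCAAT in 14 (33.3%, against 37.4%), TATAAA in 5 (11.9%, against 13.6%) and CCGGAAGT, an ETS core, in 1 (2.38%, against 3.89%). None of these motifs contains another. A match is a run of letters and no measure of binding.

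In all 8 windows AAGATGGC lay on the strand of the gene, 10 to 38 bases after the start site, and in 7 of them its ATG is the annotated start codon; the exception is Ndufaf8. The lines below show 30 bases or fewer around the letters, in capitals, to the end of the window.
Ndufs4, window chr13:114388045-114388344, minus strand: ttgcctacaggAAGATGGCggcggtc
Ndufs7, window chr10:80249199-80249498, plus strand: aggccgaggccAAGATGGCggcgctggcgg
Ndufs6, window chr13:73328433-73328732, minus strand: gggtcaccggcAAGATGGCggcggtgct
Ndufa3, window chr7:3617123-3617422, plus strand: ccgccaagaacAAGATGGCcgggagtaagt
Ndufa9, window chr6:126849095-126849394, minus strand: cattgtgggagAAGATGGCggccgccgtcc
Ndufb8, window chr19:44555393-44555692, minus strand: cggagaaggtgAAGATGGCtgcc
Ndufc1, window chr3:51408906-51409205, minus strand: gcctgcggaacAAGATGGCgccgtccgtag
Ndufaf8, window chr11:120098684-120098983, plus strand: aggcagggcccAAGATGGCggcgccctcga
The median level of the 8 members with these letters was 297 CPM, against 351 CPM for the other members with a window. The 5 with GCATGCGC, namely Ndufa11, Ndufa6, Ndufa8, Ndufaf4 and Ndufaf5, include 2 assembly factors and had a median of 319 CPM.

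Near copies could take up or lend reads. At 97% identity over at least 200 bases, 6 of the 44 leading transcripts had such a copy in the transcripts of another gene, 7 copies in all, which had 35 reads in replicate 2 and 25 in replicate 1. The largest counts were those of BC002163, a processed pseudogene of Ndufs5, with 13 and 16 reads, and of Gm49356, which overlaps Ndufb9 on the same strand, with 12 and 0 reads. For reads placed on a copy, levels of Ndufa12, Ndufab1, Ndufb4, Ndufb9, Ndufs3 and Ndufs5 are uncertain by about these counts. Reads of a copy that were placed on the member itself could not be counted. Reads in the antisense direction over exons of the members were few, 12 in replicate 2 and 4 in replicate 1, and no member passed 3 such reads in both libraries.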

How the data were processed

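Long-read RNA sequencing of total RNA had been done on the left cerebral cortex of mice in 2 libraries. The deposited tables hold counts, whole reads per transcript model with no normalization, per the file headers; other values there and in the deposited annotations are exon numbers, model lengths and exon positions on mm10, with GENCODE M21 models and models added by TALON. The aligner is not given in the sources used here. All 103 known member transcripts had the same exons in the reference annotation used here.

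Counts of the models were summed per gene. Every row of both tables was used, and columns of other samples numbered 0. A gene that matches the naming rule is not reported here and is left out of counts and sums over members. Shares have 95% Clopper-Pearson intervals, and p-values compare libraries only. The log2 ratio has 0.5 counts added. The members, gene lists and tests were chosen with earlier results of these data known. Named with values were the 12 members of highest mean CPM, the core subunits, the assembly factors, members with an adjusted p under 0.05, and the isoforms, exons and the 10 chains that pass the stated limits; others appear by range or as extremes of a group. With 1 group, edgeR 4.0.16 (TMM) and DESeq2 1.42.0 supplied scaling factors only. Scripts used Python 3.11.15, SciPy 1.17.1, pandas 2.3.3, R 4.3.3 and blastn 2.17.0. The libraries were not duplicates: their counts differed by a chi-square of 7.08 per degree of freedom.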

Additional observations from a re-analysis of the deposited data

How the results depend on the processing

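Of the members reported, 0 were called with TMM or DESeq2 scaling, totals without mitochondrial reads, no count filter, known transcripts only, or no genomic models, and 0 differed in the coding-complete share with at least 50 reads, no genomic models, or only the coding sequence of the leading transcript. Without the size limit 5 members passed. The median log2 ratio of the members stayed between 0.03 and 0.08 on these settings. Their summed level was 15998 CPM on totals without mitochondrial reads, 16203 CPM on totals of annotated genes and 13611 CPM on known transcripts. It was 15522 CPM without replicate 1 and 14952 CPM without replicate 2. Divided by the length of the leading annotated transcript, 7 of the 12 members of highest level were still among the 12 highest. The number was 12 without replicate 1 and 11 without replicate 2. Among those that left on division by length was Ndufa13. It was divided by the 1251 bases of its annotated transcript, although most of its reads were on a model of 573 bases. The known share was 89.0% without replicate 1 and 89.7% without replicate 2. The 6 members with a leading transcript under 90% stayed 6 with either library alone. Exons of intermediate inclusion numbered 14 without replicate 1 and 16 without replicate 2. Shared chains outside the annotation fell to 32 with at least 3 reads per library. The design of 2 libraries in 1 group limits every statement on spread, and low counts, as for Ndufaf6 and Ndufaf1, give wide intervals. No paired analysis was possible because both libraries belong to the same group.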
